A study of Homo sapiens with 6 samples.

Results

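Integrins and laminins are the chains through which epithelial cells hold on to the basement membrane, and their genes were taken from the series by symbol alone: every ITGA gene with a number or with the letter V, L, M, X, D, E or the suffix 2B, *ITGB1* to *ITGB8* and every numbered LAMA, LAMB and LAMC gene. This rule found 38 of the 20347 gene symbols in the table, 18 of them integrin alpha, 8 integrin beta and 12 laminin genes. An integrin is a membrane receptor of an alpha and a beta chain that binds matrix proteins outside the cell and the actin or keratin cytoskeleton inside it. A laminin is a secreted trimer of an alpha, a beta and a gamma chain, and laminin trimers form the sheet of the basement membrane. Carcinoma cells of the pancreatic duct depend on these contacts for anchorage and for movement.

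RNA was sequenced from PaTu8988t, an established human pancreatic ductal adenocarcinoma (PDAC) cell line, in 3 replicates labelled Control and 3 labelled *SAMD1* KO. *SAMD1* is a chromatin regulator that binds unmethylated CpG islands. The knockout was made by CRISPR/Cas9 with guides against *SAMD1*, the control cells carried the same vector with an unspecific guide, and cells of both groups grew in high-glucose DMEM with fetal bovine serum. The *SAMD1* KO libraries come from 3 clonally independent lines grown from single cells under puromycin, so their spread holds differences between clones, whereas the sources do not say whether the control replicates were separate clones. Values are normalized counts, that is reads per gene divided by a size factor of the library.

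Library totals ran from 35589477 to 45172216 reads. *SAMD1* itself had 2231, 2382 and 2299 normalized counts in the control replicates and 874.1, 1082 and 824.8 in KO clones 1 to 3 (log2 fold change −1.32). Of 7 markers of ductal epithelium, 2 were listed at 0 in every library, *KRT19* among them. The other 5 summed to 62874 to 66080 normalized counts in control and 67857 to 108772 in KO cells, and *KRT7* and *KRT18* passed the test for higher expression. The 7 leukocyte markers summed to 359 to 383 and 255 to 335 normalized counts, nearly all of it *CD68*, with 2 at 0 everywhere, and the 6 of endothelium and platelets to 80.1 to 85.9 and 35.6 to 85.4, with *PF4* and *GP9* at 0. The 7 markers of fibroblasts and stellate cells summed to 167 to 170 and 164 to 458 normalized counts, with *DCN* and *LUM* at 0 and *PDGFRA* higher (log2 fold change 1.90, limma adjusted p = 0.0139). Their part in the results was not tested. In bulk RNA, a change in the number of cells that express a gene and a change in RNA per cell cannot be told apart.

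Expression was compared with limma on log2(normalized count + 1). Of the 38 genes, 28 had a mean of at least 10 normalized counts over the 6 libraries and were tested (12 integrin alpha, 6 integrin beta and 10 laminin genes). The cut-off of the study's methods was used, which the study applied to DESeq2 and which is applied here to limma. A gene was called when its log2 fold change exceeded 0.5 in size and its unadjusted p was under 0.01, and p-values were adjusted by Benjamini-Hochberg over the 12773 genes of the fit. In *SAMD1* KO cells 3 of the 28 genes were called higher, the beta chains *ITGB3*, *ITGB5* and *ITGB8*, which is 10.7% of those tested, and 5.77% of all tested genes were. No integrin or laminin gene was called lower by limma, edgeR or DESeq2, where limma called 2.08% of all tested genes lower. At an unadjusted limma p below 0.05, 2 were lower (*ITGA6* and *LAMB3*) and 7 higher (*ITGA10*, *ITGAV*, *ITGB3*, *ITGB4*, *ITGB5*, *ITGB8* and *LAMB1*). In the same 7 genes every KO clone lay above every control replicate, as in 19.2% of all tested genes. *ITGA6* was the 1 gene with every clone below every control replicate, as in 18.6% of all tested genes. The median log2 fold change over the 28 genes was 0.13, and over all tested genes it was −0.0059. In an exact permutation test the smallest p that 3 against 3 libraries allow is 0.1, and each of these 8 genes had that value.

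**Figure D1:**
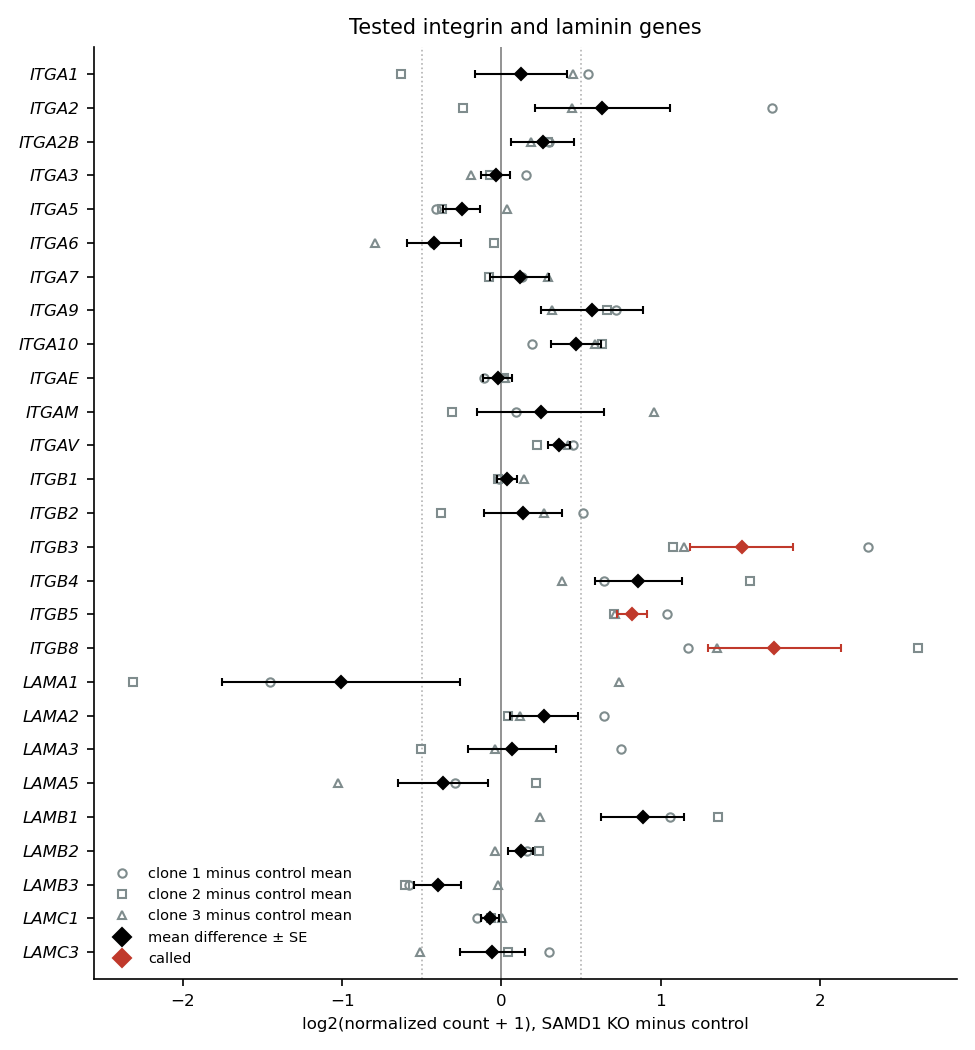
Log2 fold change of 27 tested integrin and laminin genes, *SAMD1* KO minus control, on the log2(normalized count + 1) scale. Diamonds are the limma estimates with their standard error, open circles, squares and triangles are KO clones 1, 2 and 3 minus the control mean, and dotted lines mark 0.5 in both directions. *ITGB3*, *ITGB5* and *ITGB8* (red) were called, and in 15 of the genes drawn the clones fell on both sides of the control mean.

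The starts of *ITGAV* and *ITGB5* are shown because they encode the alpha v chain and the partner that had the smallest p of all 28 genes. The stretches upstream of each canonical start that carry no annotated exon of the gene, from RefSeq on GRCh38.p14, lie at chr2:186589806-186590009 on the plus strand (204 bases) and chr3:124887366-124887599 on the minus strand (234 bases). The canonical start of *ITGB5* lies inside the annotated extent of the gene, which has longer transcripts. Capitals mark GCGC, the short CpG motif named by the study for *SAMD1*, which reads the same on both strands.
ITGAV promoter: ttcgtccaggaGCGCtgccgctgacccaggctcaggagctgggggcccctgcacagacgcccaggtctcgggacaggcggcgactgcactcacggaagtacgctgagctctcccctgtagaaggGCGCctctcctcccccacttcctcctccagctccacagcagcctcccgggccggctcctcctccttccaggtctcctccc
ITGB5 promoter: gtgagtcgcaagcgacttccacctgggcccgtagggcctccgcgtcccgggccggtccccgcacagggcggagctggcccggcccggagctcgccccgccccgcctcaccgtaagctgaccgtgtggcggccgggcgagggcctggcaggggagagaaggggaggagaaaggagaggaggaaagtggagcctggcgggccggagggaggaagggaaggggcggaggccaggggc
In the whole 250 bases before the start, *ITGAV* had 3 GCGC and 18 CpG, and *ITGB5* had 0 GCGC and 23 CpG. *ITGB8* had 2 GCGC and 21 CpG, but 198 of its 250 bases lie in exons of other transcripts of the gene. *ITGB3* and *ITGB4* had no entry in the promoter table. At the genes that did not pass the cut-off but whose libraries did not overlap, *LAMB1* had 7 GCGC, *ITGA6* had 4 and *ITGA10* had 0. In these windows 52, 117 and 61 of the 250 bases lie in exons of other transcripts of the same gene. Of the 18 tested integrin and laminin genes with an entry, 12 (66.7%) held at least 1 GCGC, and of 9931 tested genes with an entry 84.7% did. The median was 2 GCGC and 17 CpG over the 18 genes, and 3 GCGC and 22 CpG over all. These are counts of letters, and binding of *SAMD1* was not analysed here.

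Alpha v pairs with several beta chains, and the resulting receptors bind vitronectin, fibronectin and the latent form of TGF-beta. *ITGAV* (chromosome 2, 186590010 to 186680901 on GRCh38) had 10239.9, 10494 and 10570.4 normalized counts in the control replicates and 14226, 12210.2 and 13939 in KO clones 1 to 3. All clones lay above all control replicates. The mean rose from 10435 ± 173 to 13458 ± 1091 (SD, n = 3 each), and the log2 fold change was 0.36 ± 0.068 (SE, limma adjusted p = 0.0155), which is under the cut-off of 0.5. With each library omitted in turn, 3 of 6 fits kept an adjusted p below 0.05 (at most 0.0921). The 40 genes nearest to *ITGAV* were also higher, by a median of 0.11, 0.13 and 0.10 on the log2 scale in clones 1 to 3, and with these subtracted the log2 fold change of *ITGAV* was 0.25 (adjusted p = 0.0412).

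*ITGB5* encodes the beta chain of a vitronectin receptor with alpha v. *ITGB5* (chromosome 3, 124761948 to 124901418) had 5525, 5773 and 5662 normalized counts in control and 11619.7, 9243 and 9274 in the clones. Clone 1 had the highest value, and the lowest clone was well above the highest control replicate. The mean rose from 5653 ± 124 to 10046 ± 1363 (SD, n = 3 each), 1.78-fold, with a log2 fold change of 0.82 ± 0.093 (SE, limma adjusted p = 0.00255). Leaving out each library in turn gave log2 fold changes from 0.71 to 0.88 and an adjusted p of at most 0.0228. Its neighbouring genes were slightly lower in the clones (−0.10, −0.099 and −0.079).

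*ITGB3* encodes the beta chain that joins alpha v in endothelial and many invasive cells and *ITGA2B* on platelets. *ITGB3* (chromosome 17, 47253827 to 47313743) had 64.1, 59.7 and 68.7 normalized counts in control and 319.4, 136.5 and 143.0 in the clones. Clone 1 stood above the other two, and all 3 lay above the control replicates. The mean rose from 64.2 ± 4.5 to 199.6 ± 104 (SD, n = 3 each), and the log2 fold change was 1.51 ± 0.32 (SE, limma adjusted p = 0.0248). The call held in each of the 6 fits that left out 1 library, and the adjusted p was below 0.05 in 3 of them (at most 0.103). An annotated read-through gene shares 33.2% of the exon bases of *ITGB3* on the same strand, so reads there could belong to either.

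*ITGB8* encodes the chain with which alpha v activates latent TGF-beta. *ITGB8* (chromosome 7, 20330702 to 20415754) was near the lower limit of the test, with 12, 13 and 8 reads in the control libraries and 28, 89 and 35 in the clones. In normalized counts these were 13.7, 12.7 and 9.16 against 27.7, 76.9 and 31.5, with clone 2 the highest and no overlap. The log2 fold change was 1.71 ± 0.42 (SE, limma adjusted p = 0.0382), from a mean of 11.9 ± 2.4 to 45.4 ± 27.4 (SD, n = 3 each). Without control replicate 2 the unadjusted p was 0.0126 and without control replicate 3 it was 0.0173, so the call was lost in both. Of the remaining partners of alpha v, *ITGB6* had 2 to 5 reads in a library and was not tested. *ITGB1*, the common beta chain, had 31661, 31799.6 and 32842 normalized counts in control and 31798, 31649.8 and 35423 in the clones, and the groups overlapped (log2 fold change 0.036 ± 0.064, SE, limma adjusted p = 0.745).

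**Figure D2:**
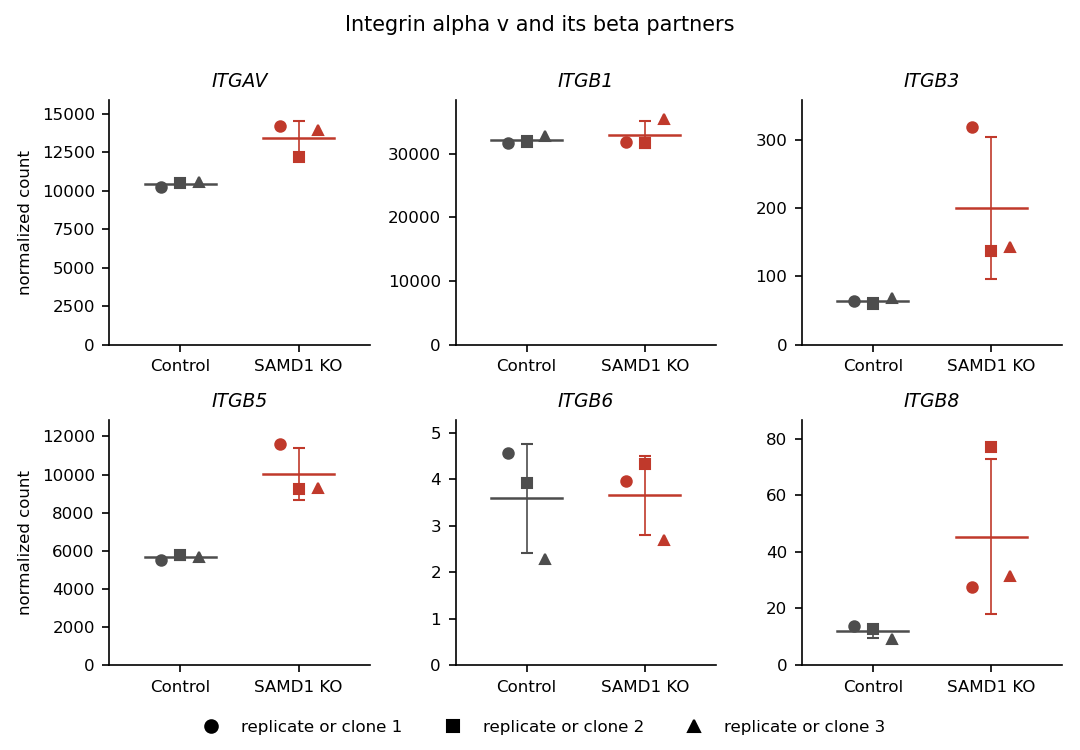
Normalized counts of *ITGAV* and of the beta chains that pair with it, in the 3 control replicates (grey) and the 3 *SAMD1* KO clones (red). Symbols are single libraries, lines are means with error bars of 1 SD (n = 3), each axis starts at 0 and has its own scale. *ITGAV*, *ITGB3*, *ITGB5* and *ITGB8* lie above control in every clone, while *ITGB1* overlaps between the groups and *ITGB6* stays at 2 to 5 reads.

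Levels can be set beside each other only per length, so the normalized count was divided by the length of the canonical transcript in kilobases and each chain was expressed as a share of its class. Among beta chains in control cells, *ITGB1* held 78.5% ± 0.78, *ITGB5* 11.6% ± 0.22 and *ITGB4* 9.42% ± 0.64 (SD, n = 3), and these ranges did not overlap. *ITGB2* held 0.28%, *ITGB3* 0.099% and *ITGB8* 0.012%. In KO cells the share of *ITGB1* was 66.3%, 62.1% and 73.1% in clones 1 to 3, that of *ITGB5* 20.4%, 15.3% and 16.1%, and that of *ITGB4* 12.5%, 22.2% and 10.3%. The summed level of the beta chains was 10702 to 11168 per kilobase in control and 12842 to 13648 in the clones, while *ITGB1* itself overlapped between the groups. *ITGB3*, *ITGB5*, *ITGB6* and *ITGB8* summed were 0.865, 0.880 and 0.858 times the level of *ITGAV* in control and 1.32, 1.22 and 1.07 times in the clones. Nearly all of this sum was *ITGB5*. The length of all annotated exons in place of the canonical transcript was a choice made after seeing the data. With it *ITGB4* (22.5%) stood beside *ITGB5* (21.7%) in control cells with overlapping ranges, and *ITGB1* held 55.2%. By that length *ITGB3*, *ITGB5*, *ITGB6* and *ITGB8* summed were 1.62, 1.65 and 1.61 times *ITGAV* in control. In the clones they were 2.49, 2.29 and 2.01 times. Whether the sum lay above or below *ITGAV* in control thus depended on the length used.

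Among alpha chains in control cells, *ITGA3* held 55.2% ± 0.88 of the level per kilobase, *ITGA6* 31.4% ± 0.58, *ITGAV* 6.87% ± 0.10, *ITGA5* 3.79% ± 0.10 and *ITGA2* 1.17% ± 0.091 (SD, n = 3), followed by *ITGAE* and *ITGA1*. None of these neighbours overlapped, and from *ITGA10* to *ITGA7* the ranges of neighbours did. Per kilobase of all annotated exons, *ITGA3* (44.6%) and *ITGA6* (44.3%) overlapped. The 3 leading alpha chains in control were the laminin receptors *ITGA3* and *ITGA6* and the alpha v chain.

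**Figure D3:**
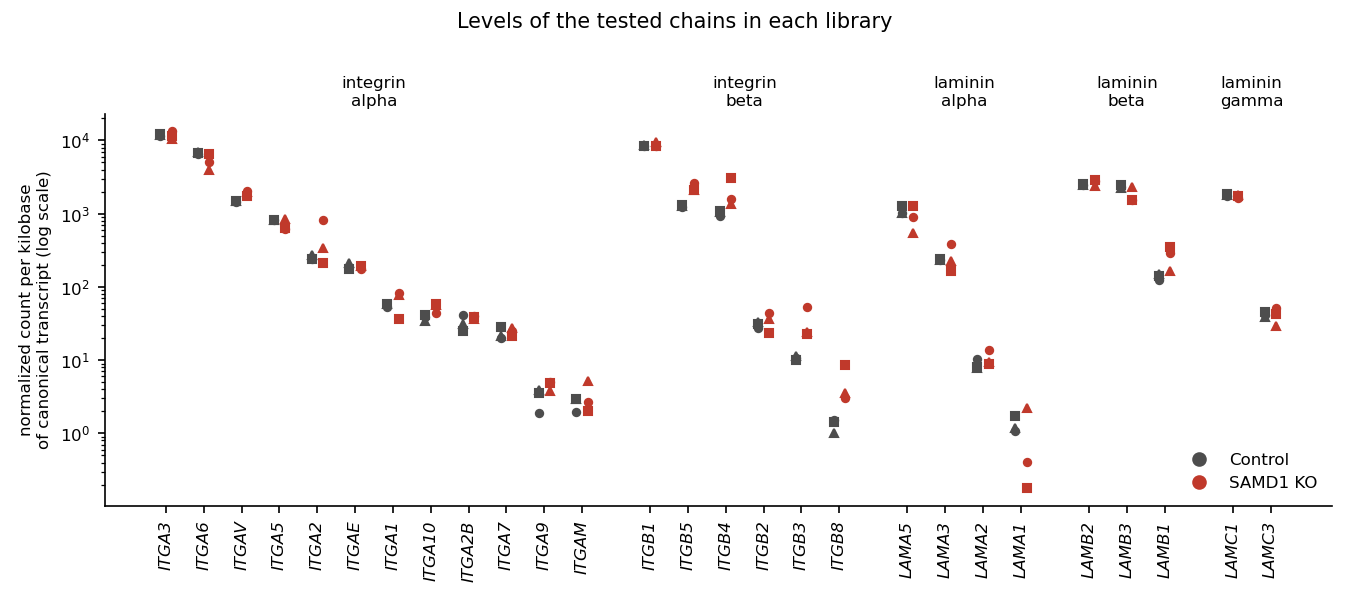
Normalized count per kilobase of canonical transcript (log scale) of 27 tested genes in each library, sorted by the control mean within the 5 chain classes. Grey symbols are control replicates and red symbols *SAMD1* KO clones (circle, square and triangle for 1, 2 and 3). *ITGA3*, *ITGA6* and *ITGB1* are the highest integrin chains, and *LAMB2*, *LAMB3* and *LAMC1* the highest laminin chains.

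*ITGA6* and *ITGB4* form the receptor of the hemidesmosome, which ties laminin to keratin filaments, and *ITGA6* also pairs with *ITGB1*. *ITGA6* (chromosome 2, 172427354 to 172506459) had 38282, 39702 and 40235 normalized counts in control and 29287, 38207 and 22706 in the clones. Clone 2 was just under the lowest control replicate and clone 3 farthest below it. The log2 fold change was −0.42 ± 0.17 (SE, limma adjusted p = 0.145), and it was −0.61 without clone 2 (adjusted p = 0.0154) and −0.24 without clone 3. The 40 nearest genes were 0.11 higher in each clone, and with this subtracted *ITGA6* passed the cut-off at −0.53 (unadjusted p = 0.00918, limma adjusted p = 0.0549).

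*ITGB4* (chromosome 17, 75721328 to 75757818) had 5539.7, 6503 and 6206 normalized counts in control and 9489.7, 17898 and 7895 in the clones. Clone 2 was the highest of all libraries, and the groups did not overlap. The mean was 6083 ± 493 in control and 11761 ± 5375 in KO cells (SD, n = 3 each), which gave a log2 fold change of 0.86 ± 0.27 (SE, unadjusted p = 0.0151, limma adjusted p = 0.0827). It was called without clone 2 (0.51, adjusted p = 0.0226) and without clone 3 (1.10, adjusted p = 0.0326). Per kilobase, *ITGB4* was 0.143, 0.162 and 0.152 times the level of *ITGA6* in control and 0.320, 0.462 and 0.343 times in clones 1 to 3. The ratio was higher in every clone, a description with no test. *ITGA3*, the other main laminin receptor chain and a partner of *ITGB1*, overlapped between the groups (58271 ± 1899 and 57094 ± 6963 normalized counts, SD, n = 3 each, log2 fold change −0.036).

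The collagen receptors *ITGA1* and *ITGA2* are neighbours on chromosome 5 and both pair with *ITGB1*. *ITGA2* (52989340 to 53094779) had 1882, 1901 and 2153 normalized counts in control and 6406, 1673 and 2692 in the clones. Clone 1 was far above every other library and clone 2 below every control replicate. The log2 fold change was 0.63 with a standard error of 0.42 (limma adjusted p = 0.358), and it was 0.10 without clone 1 and 1.07 without clone 2 (adjusted p = 0.08). *ITGA1* (52787916 to 52959209) had 574.2, 622.3 and 634.6 normalized counts in control and 889.9, 394.0 and 833.8 in the clones (log2 fold change 0.12, limma adjusted p = 0.814). Clone 2 was again the lowest library. Relative to control, the median of the 40 genes around this pair was −0.57 on the log2 scale in clone 2, −0.090 (*ITGA1*) and −0.087 (*ITGA2*) in clone 1 and 0.0025 in clone 3. With these medians subtracted, the log2 fold change was 0.85 for *ITGA2* (adjusted p = 0.12) and 0.34 for *ITGA1* (adjusted p = 0.191).

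*ITGA10*, a collagen receptor of cartilage, had 200.2, 215.3 and 173.0 normalized counts in control and 223.5, 303.2 and 294.1 in the clones. Clone 1 was just above the highest control replicate, and the groups did not overlap. Its log2 fold change was 0.47 ± 0.16 (SE, limma adjusted p = 0.0935), and without clone 1 it was 0.61 (adjusted p = 0.0226). Over the 6 fits that left out a library it ran from 0.38 to 0.61, and the adjusted p was below 0.05 in 1 of them (at most 0.299). *ITGA11*, the collagen receptor of fibroblasts, had 3 to 12 reads and was not tested.

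**Figure D4:**
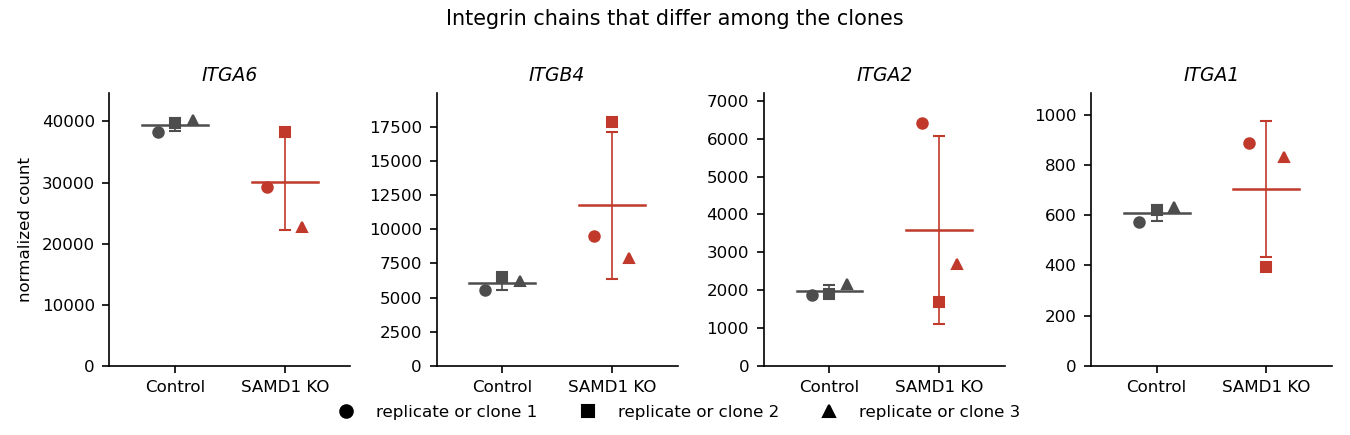
Normalized counts of *ITGA6*, *ITGB4*, *ITGA2* and *ITGA1* in the control replicates (grey) and *SAMD1* KO clones (red), with symbols for single libraries and lines for the mean with error bars of 1 SD (n = 3). Clone 2 has the highest *ITGB4* (17898) and the lowest *ITGA1* (394.0), and clone 1 the highest *ITGA2* (6406).

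*ITGA5*, the fibronectin receptor chain that pairs with *ITGB1*, had 3451 to 3489 normalized counts in control and 2610.5, 2681 and 3569 in the clones (log2 fold change −0.25, limma adjusted p = 0.201). Clones 1 and 2 were below and clone 3 above every control replicate. *ITGA9*, a receptor of tenascin C, had 14.9 to 30.9 normalized counts in control and 29.7 to 39.6 in KO cells (0.57, adjusted p = 0.28), and its neighbouring genes were higher by 0.29, 0.23 and 0.043 in clones 1 to 3. *ITGA7*, the laminin receptor chain of muscle, had 82.4 to 115.5 and 89.0 to 115.1 (0.11, adjusted p = 0.723). *ITGA4* had 2 to 5 reads and was not tested. *ITGA8* had no read in any library, where a count of 0 allows up to 3 reads per library.

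The leukocyte integrins other than *ITGAE* were low. *ITGB2*, the common beta chain of *ITGAL*, *ITGAM*, *ITGAX* and *ITGAD*, had 76.6, 87.1 and 93.9 normalized counts in control. In the clones it had 122.6, 65.7 and 103.4 (log2 fold change 0.14, limma adjusted p = 0.75). *ITGAM* had 9.15 to 13.7 and 9.50 to 24.3 (0.25, adjusted p = 0.722). *ITGAL* had 0 to 2, *ITGAX* 0 to 7, *ITGAD* 1 to 3 and *ITGB7* 0 to 3 reads in a library. *ITGAE*, which with *ITGB7* binds E-cadherin, had 662.4 to 796.1 normalized counts in control and 671.4 to 734.0 in KO cells (−0.023, adjusted p = 0.893). The platelet chain *ITGA2B* had 87.1 to 144.1 and 126.8 to 137.4 (0.26, adjusted p = 0.416).

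*LAMA3* and *LAMB3* are chains of the laminin that binds *ITGA6* with *ITGB4* and *ITGA3* with *ITGB1* beneath epithelia, and neither passed the cut-off. *LAMB3* (chromosome 1, 209614870 to 209652425) had 9192, 9822 and 9014 normalized counts in control and 6259, 6149 and 9192 in the clones. Clones 1 and 2 were lower, and clone 3 lay within the control range. The log2 fold change was −0.40 ± 0.15 (SE, limma adjusted p = 0.125), and without clone 3 it was −0.59 (adjusted p = 0.00254). That was the only 1 of the 6 fits leaving out a library with an adjusted p below 0.05 (at most 0.305). Over these fits the log2 fold change of *LAMB3* ran from −0.59 to −0.30. *LAMA3* (chromosome 18) had 2443, 2528 and 2449 normalized counts in control and 4166, 1744 and 2402 in the clones. It was highest in clone 1 and lowest in clone 2, with a log2 fold change of 0.069 (limma adjusted p = 0.895). Per kilobase, *LAMA3* was 0.097 to 0.102 times the level of *LAMB3* in control and 0.251, 0.107 and 0.098 times in clones 1 to 3. The ratio was above the control range in clones 1 and 2 and within it in clone 3.

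*LAMB1*, a beta chain of the laminins with *LAMA1* or *LAMA5* and *LAMC1*, had 711.5, 786.6 and 852.2 normalized counts in control and 1632, 2004 and 924.6 in the clones (chromosome 7, 107923799 to 108003213). All clones were above control, clone 3 only slightly. The mean was 783.5 ± 70.4 and 1520.2 ± 548 (SD, n = 3 each), and the log2 fold change was 0.89 ± 0.26 (SE, unadjusted p = 0.0104, limma adjusted p = 0.0657). It missed the cut-off narrowly and passed it in edgeR (unadjusted p = 0.00668, adjusted p = 0.0503) and in DESeq2 (9.33e-05). In limma it also passed with scaling by the 75th percentile (unadjusted p = 0.00926), with no count filter (0.00791) and with neighbours subtracted (0.00682). It did not pass with the replicate number as a block (0.0114), a mean of at least 50 (0.0113) or pseudocounts of 0.1 and 10 (0.0104 in both). With each library left out in turn it passed only without clone 3. The adjusted p was below 0.05 in 1 of these 6 fits (at most 0.220). *LAMB2*, the other partner of *LAMC1*, overlapped between the groups (14049.8 ± 351 and 15329 ± 1498, log2 fold change 0.12). Its neighbours were higher by 0.24 in clone 1 and 0.30 in clone 2, and with them subtracted its log2 fold change was −0.060. *LAMB1* was 0.052, 0.055 and 0.062 times the level of *LAMB2* per kilobase in control and 0.104, 0.122 and 0.068 times in the clones.

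Laminin beta levels in control cells were split between *LAMB2* (49.5% to 50.3%) and *LAMB3* (46.6% to 47.7%), whose levels per kilobase overlapped, with *LAMB1* at 2.81% ± 0.28 (SD, n = 3). *LAMB4* had 0 to 2 reads and was not tested. In KO cells *LAMB2* held 59.9%, 60.7% and 49.5%, and *LAMB3* 33.8%, 31.9% and 47.2%, so clone 3 kept the control split. The summed level of laminin beta chains was 4824 to 5125 per kilobase in control and 4614 to 4855 in the clones.

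*LAMA5* led the laminin alpha chains, with 81.9% ± 1.6 of their level per kilobase in control cells and *LAMA3* with 17.3% ± 1.5 (SD, n = 3). *LAMA5* (chromosome 20, 62307955 to 62367312) had 11531, 14573 and 11779 normalized counts in control and 10271, 14593 and 6173 in the clones. Clone 3 was the lowest library and clone 2 level with the highest control replicate. The log2 fold change was −0.37 ± 0.28 (SE, limma adjusted p = 0.425), and it was −0.66 without clone 2 (adjusted p = 0.0943) and −0.036 without clone 3. *LAMC1*, the gamma chain it joins, had 13851, 14708 and 14286 in control and 12821, 13676 and 14328 in the clones (−0.071, adjusted p = 0.463). *LAMA5* per kilobase was 0.578, 0.688 and 0.572 times *LAMC1* in control and 0.556, 0.740 and 0.299 times in the clones.

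The remaining laminin chains were low. *LAMA1*, the alpha chain of embryonic basement membranes, had 9, 17 and 10 reads in control and 4, 2 and 24 in the clones (log2 fold change −1.01 ± 0.75, SE, limma adjusted p = 0.407). Clone 3 went the opposite way from the other two, and without it *LAMA1* was lower by the cut-off (−1.88, unadjusted p = 0.00566). *LAMA2*, the alpha chain of muscle and nerve, had 75.6 to 99.5 normalized counts in control and 86.4 to 131.5 in KO cells (0.27, adjusted p = 0.441), and *LAMC3* had 290.9 to 341.5 and 218.6 to 384.7 (−0.056, adjusted p = 0.884). *LAMA4* had 0 or 1 read per library and was not tested.

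**Figure D5:**
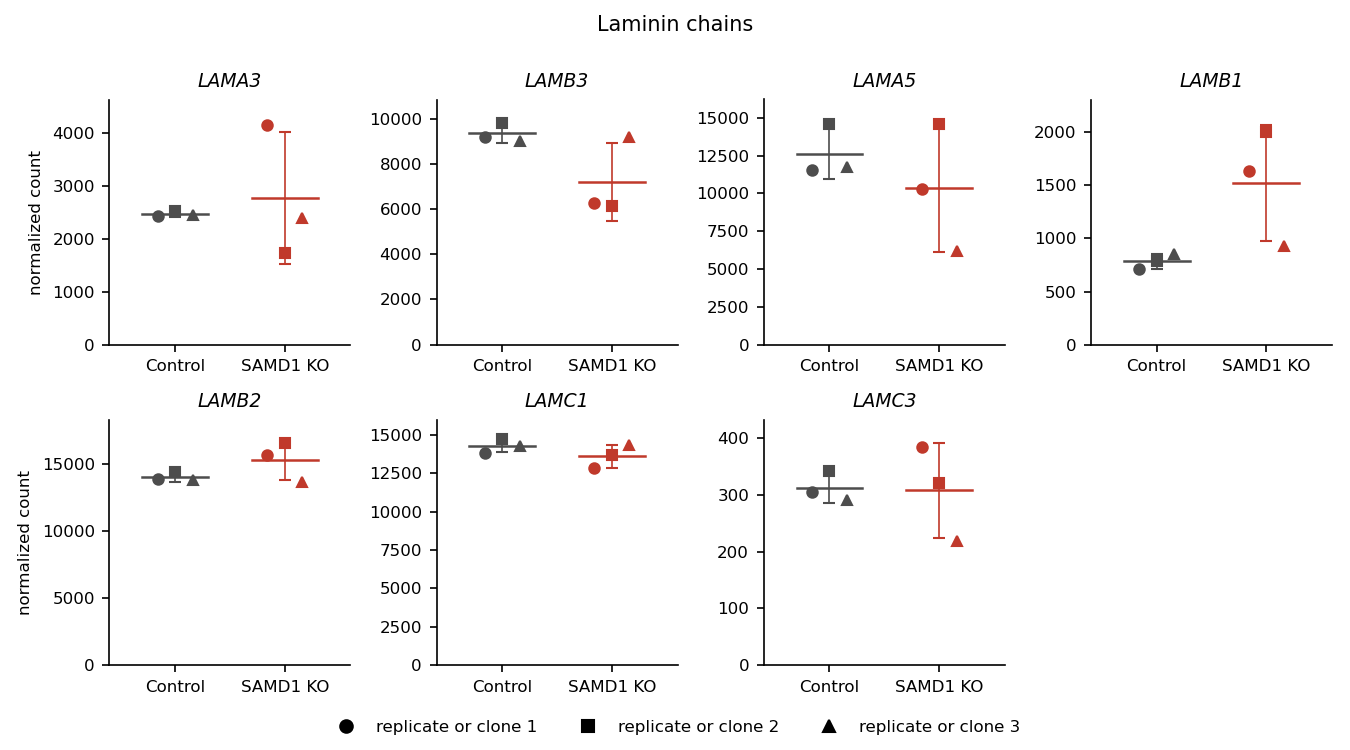
Normalized counts of 7 laminin chains in the control replicates (grey) and *SAMD1* KO clones (red), with symbols for single libraries and lines for the mean with error bars of 1 SD (n = 3). The clones of *LAMB1* lie above control (924.6 to 2004 against 711.5 to 852.2), and in the other 6 chains the groups overlap.

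The median spread between clones was larger over these genes than over all tested genes. The median SD of log2(normalized count + 1) over the 3 clones was 0.35 for the 28 genes and 0.15 for all tested genes, and over the 3 control replicates it was 0.11 and 0.059. For genes with a mean of at least 50 normalized counts, the medians over the clones were 0.33 (24 genes) and 0.14 (11453 genes), and over the control replicates 0.088 and 0.053. The spread between control replicates was also larger for these genes than for all. By its SD over the clones, *LAMA1* stood at percentile 99.6 of all tested genes, *ITGA2* at 98.5, *ITGB8* at 97.0 and *ITGB3* at 95.8. *LAMA1* had 2 to 24 reads and *ITGB8* 28 to 89 reads in the clones, and the part of counting error in their SD was not tested. *LAMB2* (47.6), *ITGAV* (39.4), *ITGB1* (27.9), *LAMC1* (23.0), *ITGAE* (19.4) and *ITGA2B* (16.1) varied less than the median gene. In 16 of the 28 genes (57.1%) the clones lay on both sides of the control mean, and in 46.7% of all tested genes they did. No test was made of these shares.

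Around the integrins and laminins, 5 lists of related genes were counted, with 145 genes of which 120 were tested. Of these, 12 were called higher and 7 lower, beside shares over all tested genes of 5.77% higher and 2.08% lower. Their median log2 fold change was 0.029. Among 54 tested activators and adaptors of the adhesion plaque, 3 were higher and 1 lower (median −0.074). The tensin *TNS3*, which links beta chains to actin, rose from a mean of 237.5 ± 8.9 to 706.8 ± 108 normalized counts (SD, n = 3 each, log2 fold change 1.56, limma adjusted p = 0.000777). *ARHGEF6*, an exchange factor that binds parvin, and *TLN2*, a talin that binds and activates beta chains, were the others (1.43 and 0.57), and the tensin *TNS2* fell by 0.61 on the log2 scale. Among 11 tested hemidesmosome and tetraspanin partners (median 0.030), 1 was called, *COL17A1*, the transmembrane collagen beside *ITGB4*, which was lower (−0.98, limma adjusted p = 0.0608).

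Basement membrane components and laminin partners had 4 called higher and 3 lower of 17 tested (5.77% and 2.08% over all tested genes), with a median of 0.46. *FRAS1*, a protein of the sheet beneath epithelia, rose from a mean of 405.6 ± 65.0 to 1030.8 ± 155 normalized counts (SD, n = 3 each, log2 fold change 1.34, limma adjusted p = 0.00258). The laminin receptor *BCAM* fell by 1.00, the collagen chain *COL4A2* by 2.38 and the perlecan gene *HSPG2* by 0.67 on the log2 scale. Of 30 other integrin ligands tested, 3 were higher and 1 lower (median 0.20). *LTBP1*, which holds the latent TGF-beta that alpha v integrins bind, had a log2 fold change of 1.68 (limma adjusted p = 0.000278), and *TGFB3* (0.73) and *ICAM5* (0.73) were also higher. *CCN2*, a secreted ligand of alpha v integrins, had 26989, 29242 and 27931 normalized counts in control and 14490.2, 18300.1 and 17994 in the clones (−0.74, adjusted p = 0.00416). Of 8 tested receptors for collagen or laminin that are not integrins, 2 were higher, the glypicans *GPC1* (0.89) and *GPC4* (0.77), and *ADGRG6* was lower (−0.68, median of the list 0.24).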

How the data were processed

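The 6 libraries were grouped from their labels. The authors used RNA-STAR with the transcripts of GenCode release 43, and featureCounts, DESeq2 and hg38 are named in the submitters' processing notes. The kit (TruSeq Stranded mRNA) keeps strand, and the strand setting of the counting is not given in the sources used here. The deposited signal is a normalized count for 20347 symbols. In all libraries its values were whole multiples of 1 read (within 0.05), so reads were recovered, 35589477 to 45172216 per library. A second deposited table holds the authors' own comparison, with mean counts, log2 fold changes, their errors and statistics, and p-values, and was not used.

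limma 3.58.1 (lmFit, eBayes with trend) in R 4.3.3 compared log2(normalized count + 1), two-sided, for the 12773 genes with a mean of at least 10. Called genes had a log2 fold change beyond 0.5 and p below 0.01. Alternatives were pseudocounts of 0.1 and 10, no count filter or a mean of 50, scaling by the 75th percentile, edgeR 4.0.16 (quasi-likelihood) and DESeq2 1.42.0 on recovered reads, an adjusted p, a replicate block, each library left out, and subtraction, per library, of the median difference of the 20 nearest tested genes on each side. Steps were tested on simulated data. Positions and lengths are from GENCODE 44 on GRCh38, with 19724 symbols placed, 191 through synonyms. Promoters are from RefSeq, 250 bases before the start, for genes whose entry lay within 500 bases of the canonical start.

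By rule, integrin and laminin genes are named, and from each list up to 4 called genes with the smallest p. Counts cover all genes found, and some items are not reported here. The genes and lists were chosen with earlier results of these data known. Where nothing says that replicates were separate cultures, p-values measure the spread between these libraries. Intervals of reads and floors cover counting error only. Python 3.11.15 with numpy 2.4.6, pandas 2.3.3, SciPy 1.17.1 and matplotlib 3.10.9 was used for the other steps.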

Additional observations from a re-analysis of the deposited data

How the results depend on the processing

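With each library left out in turn, 2 to 5 integrin and laminin genes were called higher and 0 to 2 lower. Without *SAMD1* KO clone 2 there were 5 higher (*ITGB4* among those added) and 1 lower (*ITGA6*), and without clone 3 there were 5 higher (*ITGB4* and *LAMB1* added) and 2 lower (*LAMA1* and *LAMB3*). The adhesion lists had 7 to 17 genes called higher, the lowest without control replicate 1, and 5 to 11 called lower, the highest without clone 1. With neighbouring genes subtracted, 5 integrin and laminin genes were called higher (*ITGB4* and *LAMB1* added) and 1 lower (*ITGA6*). DESeq2 called 19 genes of the adhesion lists higher, against 12 in limma. The cause of these differences was not tested. A mean of at least 50 normalized counts left *ITGB8* untested.

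In 9 genes that were not called, the log2 fold change turned its sign. With each library left out in turn it ran from −0.089 to 0.50 for *ITGA1* (also −0.042), −0.13 to 0.040 for *ITGA3*, −0.087 to 0.046 for *ITGAE* (also 0.018), −0.11 to 0.53 for *ITGAM*, −0.017 to 0.064 for *ITGB1*, −0.053 to 0.39 for *ITGB2*, −0.27 to 0.36 for *LAMA3* and −0.23 to 0.17 for *LAMC3* (also 0.0097). With neighbouring genes subtracted it was −0.12 for *LAMA3* and −0.060 for *LAMB2*.

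Control and KO libraries share replicate numbers, and the labels do not say whether these pair the samples. The correlations of same-numbered deviations from the group means were 0.039, 0.13 and 0.032. Those of differently numbered deviations ran from −0.074 to 0.036. Whether the samples were paired was not tested. With the replicate number as a block, 4 genes were called higher (*ITGB4* added) and 0 lower, with 14 and 8 in the adhesion lists. A choice made after seeing the data, the length of all annotated exons, moved the shares of chains in their class but no test. With 3 libraries a group, the number of clones limits precision, and for *ITGB8* and *LAMA1* the reads do so too.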
